A study of Mus musculus with 9 samples.

Results

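The genes described here are 6 members of the STAT family of transcription factors, *Stat2*, *Stat3*, *Stat4*, *Stat5a*, *Stat5b* and *Stat6*, measured in mouse brain after injection of LPS or PBS into the striatum. They are 6 of the 17097 genes that could be named on the arrays. They were chosen by family name and not by their values, and among the probe sets that the platform annotation assigns to such a gene alone, the brightest on average over the 9 arrays stands for it. A probe set is a group of short DNA probes that report on 1 transcript, and 10 of the 45037 probe sets belong to these genes. LPS is a bacterial cell wall component that activates TLR4. All mice were male C57Bl/6J adults of 10 to 12 weeks with no introduced allele named in the labels, and all were perfused with saline before the tissue around the injection site of the injected hemisphere was taken. The 3 groups of 3 arrays were PBS with tissue taken at 4 d, LPS at 1 d (the induction phase) and LPS at 4 d (the resolution phase). RNA of 3 mice was pooled for each array, and errors below therefore describe pools. No PBS array from 1 d was analysed, and an effect of the time since surgery cannot be told apart from that of LPS at 1 d. The tissue was not sorted, so more cells of a type and more RNA per cell cannot be told apart in any value below.

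STAT proteins wait in the cytoplasm until a cytokine binds its receptor. The receptor brings together JAK kinases, which phosphorylate the STAT, and the paired STATs enter the nucleus and bind DNA. STAT2 joins IRF9 in the ISGF3 complex that answers type I interferon. STAT3 answers cytokines of the IL-6 family, IL-10 and G-CSF, and in the brain is known for its part in reactive astrocytes. STAT4 answers IL-12, the near-identical STAT5A and STAT5B answer growth hormone, prolactin, GM-CSF and cytokines of the common gamma chain, and STAT6 answers IL-4 and IL-13. Array values report the mRNA of these genes and not the phosphorylation that activates the proteins.

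*Stat2* and *Stat3* were the members whose mRNA moved most, and the 250 bases before their start sites, from RefSeq on the GRCm38.p6 build, are shown to set 1 of them beside the other. The first lies on the plus strand at chr10:128270248-128270497 and the second on the minus strand at chr11:100939541-100939790, both written 5′ to 3′. Capitals mark a match to the core of the interferon-stimulated response element (TTTC, any 2 bases and TTTC again, on either strand) or to the spaced palindrome that STAT6 prefers (TTC, any 4 bases and GAA, the same on both strands).
Stat2: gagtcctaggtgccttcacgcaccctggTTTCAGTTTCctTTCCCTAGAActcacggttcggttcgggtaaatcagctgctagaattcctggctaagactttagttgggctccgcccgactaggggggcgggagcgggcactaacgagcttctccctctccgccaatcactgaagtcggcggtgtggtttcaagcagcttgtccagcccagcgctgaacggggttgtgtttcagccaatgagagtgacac
Stat3: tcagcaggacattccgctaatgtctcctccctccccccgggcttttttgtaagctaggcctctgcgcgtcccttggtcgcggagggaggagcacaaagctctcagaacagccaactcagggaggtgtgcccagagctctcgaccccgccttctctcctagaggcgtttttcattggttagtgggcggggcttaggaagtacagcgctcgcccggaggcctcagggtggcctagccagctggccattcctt
In *Stat2* the interferon element began at position -222 from the start site and the STAT6-type palindrome at -210, with no overlap between them. The *Stat3* bases held neither, and no window of a member, counted from 250 bases before to 50 after a start site, held the gamma-activated sequence TTCNNNGAA, which also reads the same on both strands. Over all 32851 such windows in the table, 3.44% held the interferon element, 8.30% the gamma-activated sequence and 6.95% the STAT6-type palindrome, so matches by letters alone are not rare. The 6 members had 9 windows, and the other interferon element was in the second *Stat4* window, on the plus strand at chr1:52008118-52008177, shown with 25 bases on each side.
Stat4: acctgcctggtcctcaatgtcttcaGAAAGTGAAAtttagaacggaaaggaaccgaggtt
A match is a description of the letters and not a binding site. *Stat5b*, *Stat5a* and *Stat3* follow each other directly on chromosome 11, and of these neighbours *Stat3* alone passed any test below.

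Across the 3 groups, *Stat2*, *Stat3* and *Stat6* differed (3 of 6 members by the moderated F-test of limma, threshold 0.05 on the adjusted p), and 7.67% of all genes did. Leaving out any 1 array but PBS replicate 2 lost *Stat6* from these. The other members, *Stat4*, *Stat5a* and *Stat5b*, did not pass it, with adjusted p between 0.353 and 0.862. For a pair of groups, a gene was called higher or lower where it was at least 1.5-fold apart and its p, adjusted by Benjamini-Hochberg across the whole array, was below 0.05. At 1 d after LPS, *Stat2* and *Stat3* were higher than after PBS (2 of 6, against 3.86% of all genes called higher). At 4 d only *Stat3* was called higher (1 of 6, against 4.21%), and from 1 d to 4 d *Stat2* and *Stat3* fell (2 of 6, against 1.37% called lower). Limma called 0 members lower than after PBS (against 0.532% of all genes at 1 d and 0.205% at 4 d) and 0 higher at 4 d than at 1 d (against 1.84%), and at an unadjusted p under 0.05 these counts were 0 as well. With 3 arrays against 3, an exact permutation test of a single gene cannot give a p below 0.1. The median log2 change of the 6 members was 0.37 at 1 d and 0.42 at 4 d against PBS, and that of all genes was -0.03 and -0.02. The median level of an array lay between 4.32 and 4.37 on the log2 scale, and background was set at 3.49, the mean of the brightest of 23 nonspecific controls.

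**Figure D1:**
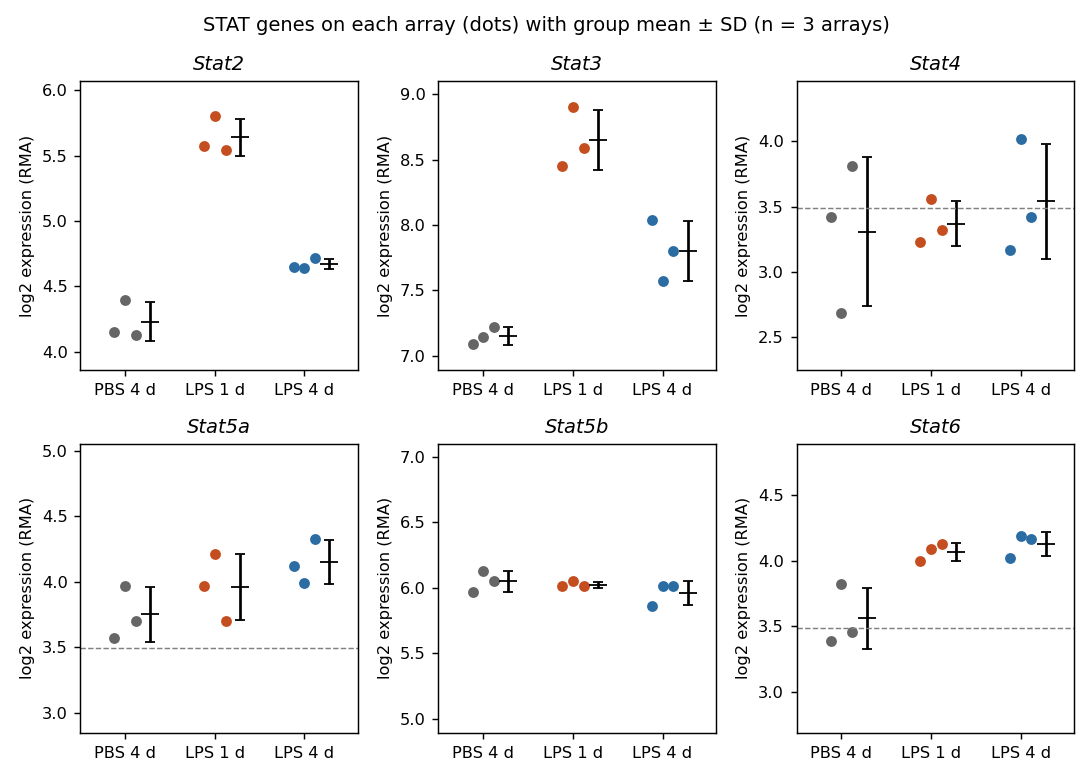
log2 expression (y axis, each panel spanning the same range) of the 6 STAT genes on each of the 9 arrays, by group (x axis), with the group mean and SD in black (n = 3 arrays) and the background level of 3.49 as a dashed line where it falls in the panel. *Stat2* and *Stat3* are highest in the LPS 1 d group and intermediate at LPS 4 d, *Stat6* is higher in both LPS groups than after PBS, and *Stat5b* stays between 5.86 and 6.13.

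*Stat2* had log2 values of 4.15, 4.40 and 4.13 on the 3 PBS arrays, 5.57, 5.80 and 5.54 at 1 d after LPS, and 4.65, 4.64 and 4.72 at 4 d. The 3 groups did not overlap, with 1 d highest, 4 d next and PBS lowest. The rise at 1 d was 1.41 on the log2 scale, or 2.66-fold (95% confidence interval 2.26 to 3.12, adjusted p = 5.97e-05 from limma), rank 336 of 17097 genes. From 1 d to 4 d the level fell by 0.97 in log2 (standard error 0.10; limma, adjusted p = 0.00156). The neighbours in that order that did not differ by the test were 4 d and PBS: the 4 d level was 1.36-fold that after PBS (interval 1.16 to 1.60, adjusted p = 0.0514), which missed both thresholds although the arrays did not overlap. Arrays that did not overlap in this direction were found for 12.0% of all genes.

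*Stat3* had log2 values of 7.09, 7.14 and 7.22 after PBS, 8.45, 8.90 and 8.59 at 1 d, and 8.04, 7.57 and 7.80 at 4 d. Again 1 d was highest, then 4 d, then PBS, with no overlap, and all neighbours in this order differed by the test. The rise at 1 d was 1.5 on the log2 scale, or 2.82-fold (interval 2.25 to 3.55, adjusted p = 0.000345 from limma), rank 317 of 17097 genes. At 4 d the level was 1.57-fold that after PBS (interval 1.25 to 1.98, adjusted p = 0.0413 from limma), just past both thresholds, and from 1 d to 4 d it fell by 0.84 in log2 (standard error 0.15; limma, adjusted p = 0.0176). Arrays at 4 d that all lay below those at 1 d, as for *Stat2* and *Stat3*, were found for 9.76% of all genes. The call at 4 d against PBS was lost without any 1 of 6 arrays (PBS replicates 1, 2 and 3, LPS 1 d replicate 3, LPS 4 d replicates 1 and 3), with log2 changes of 0.54 to 0.69 and adjusted p of 0.0685 to 0.129. The fall from 1 d to 4 d missed the threshold without LPS 1 d replicate 2 or 3 or LPS 4 d replicate 3 (log2 changes of -0.87 to -0.72, adjusted p of 0.0548 to 0.0639).

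Both genes were read by another probe set with a lower mean. That of *Stat2* was at 3.23, 3.35 and 3.51 after PBS, 4.13, 4.02 and 4.15 at 1 d and 3.68, 4.21 and 3.78 at 4 d, a rise of 0.74 on the log2 scale at 1 d (adjusted p = 0.0201 from limma) from a mean below background. Its value from 1 d to 4 d was -0.21 (interval -0.52 to 0.11) and did not pass the test. The other *Stat3* probe set was at 3.65, 3.64 and 3.56 after PBS, 3.40, 4.03 and 3.50 at 1 d and 3.54, 3.58 and 3.56 at 4 d, all close to background. Its change at 1 d was 0.03 (interval -0.31 to 0.36), so the *Stat3* result rests on the brighter probe set. The other probe sets of *Stat5a* and *Stat5b* lay below background on all arrays.

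**Figure D2:**
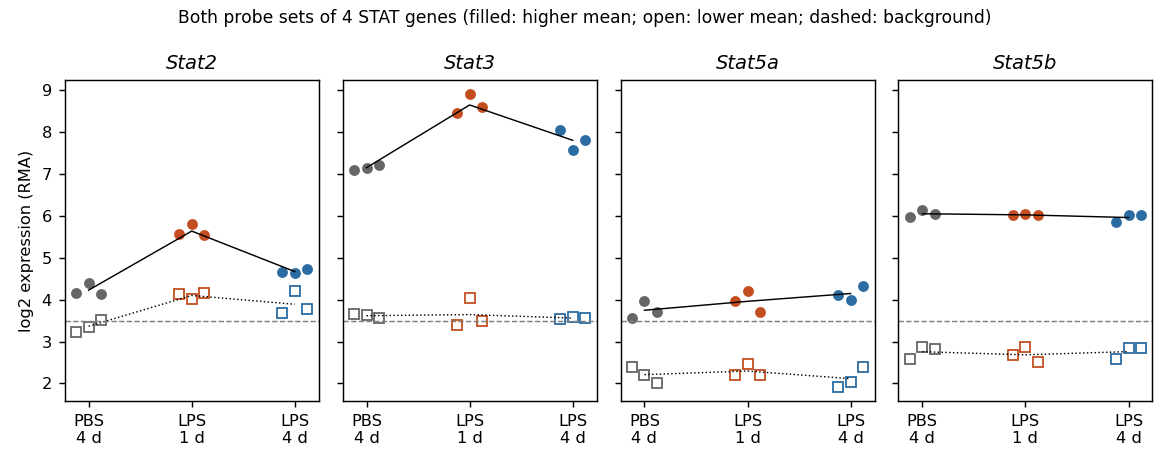
log2 expression (y axis) of the brighter probe set (filled circles, solid line through the means) and the dimmer probe set (open squares, dotted line) of *Stat2*, *Stat3*, *Stat5a* and *Stat5b* in the 3 groups (x axis), with the background level dashed. Both *Stat2* probe sets rise at 1 d, the dimmer *Stat3* probe set stays near background, and the dimmer probe sets of *Stat5a* and *Stat5b* lie below it.

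*Stat6* had log2 values of 3.39, 3.82 and 3.46 after PBS, 4.00, 4.09 and 4.13 at 1 d, and 4.02, 4.19 and 4.17 at 4 d. Both LPS groups lay above the PBS arrays with no overlap (as 11.5% of all genes did at 1 d and 12.0% at 4 d), and they overlapped each other. Unlike *Stat2* and *Stat3*, the order of its means was 4 d, 1 d, PBS, and the 4 d and 1 d levels did not differ by the test, with a difference of 0.06 (interval -0.21 to 0.33). Against PBS the differences were 1.43-fold at 1 d (interval 1.19 to 1.72, adjusted p = 0.0495 from limma) and 1.49-fold at 4 d (interval 1.24 to 1.79, adjusted p = 0.0304), past the p threshold at both times and short of the 1.5-fold one. The PBS level was close to background, with 2 of its 3 arrays below 3.49. Without PBS replicate 2, the highest of them, the log2 differences were 0.65 at 1 d (adjusted p = 0.00985) and 0.70 at 4 d (adjusted p = 0.00714), and *Stat6* then passed both thresholds. Without any 1 of the other 8 arrays the adjusted p at 1 d was 0.0634 to 0.159, and without any 1 of 7 of them (all but LPS 1 d replicate 1) that at 4 d was 0.0512 to 0.112, so the p threshold was missed. *Stat6* was read by 1 probe set.

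*Stat5b* had log2 values of 5.97, 6.13 and 6.05 after PBS, 6.01, 6.05 and 6.01 at 1 d, and 5.86, 6.01 and 6.01 at 4 d. The groups overlapped, no pair of them differed by the test, and the intervals were narrow: 0.867-fold to 1.11-fold for 1 d over PBS and 0.830-fold to 1.06-fold for 4 d over PBS. A change of 1.5-fold in either direction lay outside both. *Stat5a*, its close paralog, had values of 3.57, 3.97 and 3.70 after PBS, 3.97, 4.21 and 3.70 at 1 d, and 4.12, 3.99 and 4.33 at 4 d. Its means ran in the order 4 d, 1 d, PBS. The 4 d arrays lay above those of PBS with no overlap (as for 12.0% of all genes), by 0.015 at the closest. No pair of groups differed by the test (4 d over PBS 1.32-fold, interval 1.03 to 1.69, adjusted p = 0.245 from limma). Probe sequences were not used here, and binding of 1 paralog by probes for the other was not tested.

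*Stat4*, known from T and NK cells, had log2 values of 3.42, 2.69 and 3.81 after PBS, 3.23, 3.56 and 3.32 at 1 d, and 3.17, 4.02 and 3.42 at 4 d. In each group 2 of 3 arrays were below background, and all groups overlapped. Its intervals were the widest of the 6 genes, 0.662-fold to 1.65-fold for 1 d over PBS and 0.744-fold to 1.85-fold for 4 d over PBS, so a 1.5-fold change was not excluded by either. Of 11 markers of T and NK cells, 9 were at background in all 3 groups, among them the 2 that were called higher at 4 d (*Nkg7* and *Gzma*, named after their values were seen), and the summed linear intensity was 79.8 to 82.4 after PBS, 85.1 to 90.9 at 1 d and 91.3 to 100 at 4 d.

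**Figure D3:**
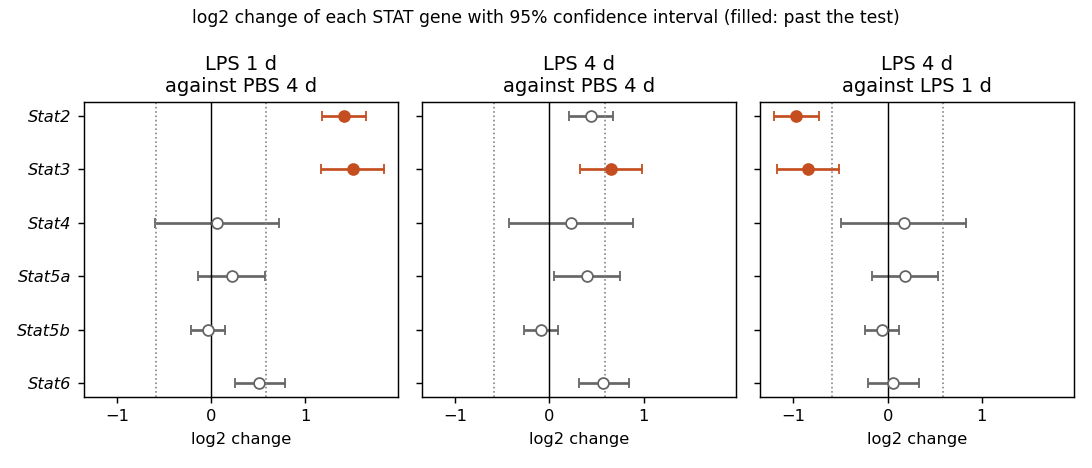
log2 change (x axis) of each STAT gene (y axis) in the 3 comparisons (panels), with 95% confidence intervals from limma, filled points for genes past both thresholds and dotted lines at 1.5-fold. *Stat2* and *Stat3* lie beyond the dotted lines at 1 d and in the fall from 1 d to 4 d, and *Stat6* lies between 0 and the line at both times against PBS.

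The genes with the most similar course were found for the members that differed across the groups, by the root mean square difference between log2 values centred on each gene's own mean, over the 9 arrays and among 17096 other genes. For *Stat2* they were *Ifit2* (0.10), *Mt1* (0.13) and *Saa1* (0.13), although the mean of *Saa1* lay below background in all groups. The log2 changes of *Ifit2* were 1.5 at 1 d and 0.32 at 4 d. For *Stat3* they were *Il18bp* (0.10), *Smim3* (0.14) and *Tm4sf1* (0.15), and *Il18bp* had values of 1.55 and 0.68. For *Stat6* they were *Efemp1* (0.09), *Bnc2* (0.11) and *Cdk2ap2* (0.11), and *Efemp1* had values of 0.54 and 0.53. The 9 points are arrays of 3 groups, so the measure mostly reflects the group means.

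Other genes of the pathway came from 12 lists by role, in which 117 of 130 genes could be analysed. At 1 d 41 were higher and 1 lower than after PBS, at 4 d 28 were higher and 0 lower, and from 1 d to 4 d 3 rose and 20 fell (35.9%, 23.9% and 19.7% of them called, against 4.39%, 4.42% and 3.21% of all genes in either direction). The lists were chosen with earlier results of these data known, so these shares describe the chosen genes and are not a test of the pathway. Some genes stand in 2 lists, such as *Socs3* among the STAT3 targets and the inhibitors. Among 16 ligands and receptors upstream of STAT3, limma called 6 higher at 1 d, 4 higher at 4 d and 4 lower at 4 d than at 1 d. The median log2 change of the 16 was 0.35 at 1 d and 0.05 at 4 d, and 3 of the 16 were at background in all groups. Where the mean of a group was at background, a fold is given as a lower limit, with array values below 3.49 raised to it. *Il6*, the cytokine of that name, was at background after PBS and at 4 d and was at least 3.27-fold higher at 1 d than in either. *Csf3*, which encodes G-CSF, was at background in the same groups and was at least 6.64-fold higher at 1 d than after PBS. *Osmr*, the oncostatin M receptor, rose by 3.06 in log2 and was still 1.97 higher at 4 d.

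Upstream of STAT2, 6 of 11 interferon ligands and receptors were at background in all groups, where a change could be missed. Of the 11, 2 were higher at 1 d and 3 at 4 d, with medians of 0.09 and 0.32. They were *Ifnar2*, a chain of the type I interferon receptor (log2 changes of 0.63 and 0.73), *Il10rb*, a chain shared by the type III interferon and IL-10 receptors (0.85 and 1.36), and at 4 d *Ifngr1* of the interferon gamma receptor (0.69, with 0.06 at 1 d). Upstream of STAT5, 9 of 14 were at background in all groups, where a change could be missed. The 2 of 14 that were higher at each time were *Csf2rb* (3.12 and 2.68) and *Csf2rb2* (at background after PBS, at least 2.45-fold and 2.95-fold higher). They are the beta chains of the GM-CSF and IL-3 receptors. The medians of the 14 were 0.17 and 0.07. Of 5 genes upstream of STAT6, *Il4ra*, the IL-4 receptor chain (at background after PBS, at least 1.30-fold and 1.15-fold higher), was called higher at both times and *Il13ra1* at 1 d (1.35, with 0.49 at 4 d), with medians of -0.06 and 0.17. Of these 5 genes, 2 were at background in all groups. Upstream of STAT4, which IL-12 activates, 4 of 5 genes were at background in all groups and limma called 0 of 5 at either time (4 at 1 d and 1 at 4 d at an unadjusted p under 0.05, 0 by ordinary tests), with medians of 0.43 and 0.07. Of the 4 JAK kinase genes limma called 0 in each comparison (1 at each time against PBS at an unadjusted p under 0.05, 0 by ordinary tests), with log2 changes of -0.11 to 0.29 at 1 d and -0.01 to 0.26 at 4 d.

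Known targets were counted by the STAT they are known for, although most answer to other factors too. Of 12 STAT2 targets, 11 were higher at 1 d and 6 at 4 d, 10 fell between the times, and the median log2 change was 2.64 at 1 d and 0.98 at 4 d. *Oasl2* (4.24 and 1.93), *Ifit1* (3.85 and 1.20) and *Rsad2* (3.75 and 1.10) are antiviral genes. *Irf9*, the DNA-binding partner of STAT2, was named after its values were seen and had changes of 1.96 at 1 d and 0.86 at 4 d, both past the test. The interferon element was present in 3 of the 8 STAT2 targets with a window (*Ifit1*, *Ifit3* and *Rsad2*), and in 3.99% of all genes. These targets were listed as genes of ISGF3, so this share was not a test. The gamma-activated sequence (9.55% of all genes) was in 1 of 8 STAT2, 3 of 10 STAT3 and 2 of 6 STAT4 targets. It was also in 2 of 5 STAT5 and 2 of 7 STAT6 targets. The STAT6-type palindrome (8.01%) was in 3 of 7 STAT6 targets, but also in 2 of 8 STAT2, 2 of 10 STAT3, 2 of 6 STAT4 and 1 of 5 STAT5 targets. Of 12 STAT3 targets, 9 were higher at 1 d and 6 at 4 d, 3 fell and 1 rose between the times, and the medians were 1.67 and 1.30. *Timp1*, an inhibitor of metalloproteinases, and *Icam1*, an adhesion molecule, were at background after PBS. *Timp1* was at least 48.6-fold higher at 1 d and 7.90-fold at 4 d, and *Icam1* at least 14.7-fold and 4.89-fold. *Socs3*, the feedback inhibitor of gp130 receptors, changed by 3.91 and 2.04 in log2.

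Many targets of STAT4 and STAT6 lay at background in all 3 groups, 4 of 6 and 7 of 12, against 0 of 12 for STAT2, 1 of 12 for STAT3 and 0 of 7 for STAT5. Of 7 STAT5 targets, *Bcl6* (0.65) and *Ccnd1* (0.60) were higher at 1 d, limma called 0 at 4 d (1 at an unadjusted p under 0.05, 0 by ordinary tests), and the medians were 0.03 and -0.07. Of 6 STAT4 targets limma called 0 at either time (1 each at an unadjusted p under 0.05, 0 by ordinary tests), with medians of 0.15 and 0.17. At 1 d 3 of 12 STAT6 targets were higher and 1 was lower, and 4 were higher at 4 d, with medians of 0.30 and 0.27. *Chil3* and *Arg1*, used as markers of alternatively activated macrophages, were at background after PBS, and *Chil3* is also in the monocyte list below. The 7 STAT6 targets at background in all groups were called in no comparison. They were *Retnla*, *Ccl22*, *Ccl24*, *Alox15*, *Pdcd1lg2*, *Mgl2* and *Clec10a*, named after their values were seen. A change at background could be missed, and the activation state of the macrophages was not tested. *Chil3* was at least 21.4-fold higher at 1 d and 2.52-fold at 4 d, and *Arg1* at least 14.1-fold and 6.99-fold. *Tgm2*, a transglutaminase, was higher at both times (2.11 and 1.03 in log2). *Mrc1*, the mannose receptor gene, named after its values were seen, had changes of -0.80 at 1 d and 0.97 at 4 d, both past the test. Of 17 inhibitors, 5 were higher at 1 d and 3 at 4 d, 2 fell between the times, and the medians were 0.10 and 0.03. Beside *Socs3* these included *Usp18*, which limits type I interferon signalling (at background after PBS, at least 11.0-fold and 1.96-fold higher), and *Ptpn6*, the phosphatase SHP-1 of blood cells (2.66 and 3.19 in log2).

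**Figure D4:**
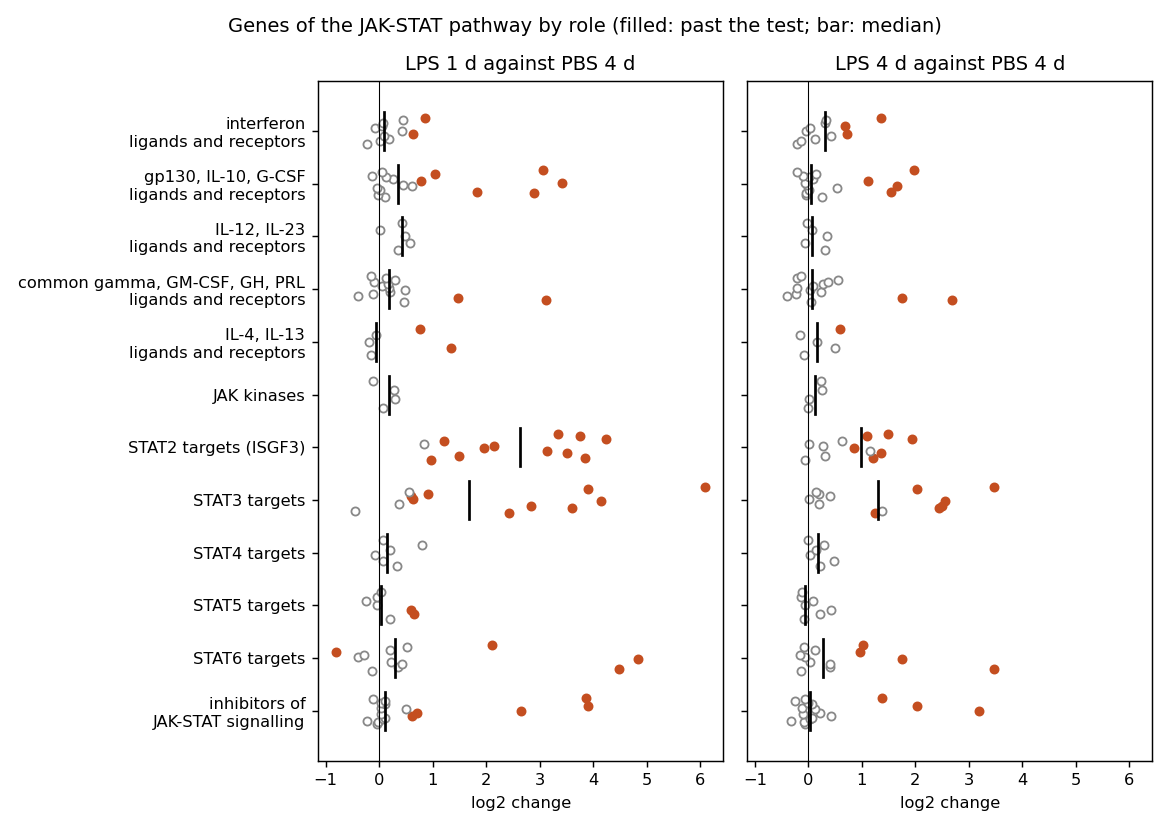
log2 change against PBS (x axis) at 1 d (left) and 4 d (right) of each pathway gene analysed, in 12 lists by role (y axis), with filled points for genes past both thresholds and a bar at the list median. The STAT2 targets shift from a median of 2.64 at 1 d to 0.98 at 4 d and the STAT3 targets from 1.67 to 1.30, while the JAK kinases have no filled point.

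Markers of recruited cells also differed between the groups. For neutrophils limma called 7 of 10 markers higher at 1 d and 1 at 4 d, with 4 lower at 4 d than at 1 d. The marker called at 4 d was *Csf3r*, named after its values were seen, which is also counted among the ligands and receptors upstream of STAT3. The summed linear intensity of the neutrophil markers was 108 to 189 after PBS, 1660 to 4510 at 1 d and 300 to 520 at 4 d, with *Camp* at background in all groups. Those of monocytes and recruited macrophages, 8 in all, had 5 higher at 1 d, then 4 at 4 d, and summed to 225 to 258, 704 to 768 and 697 to 907, with *Ms4a8a* at background in all groups. From 1 d to 4 d 1 of the 8 rose and 2 fell, so similar sums at the 2 times hide opposite courses. After PBS 6 of the 8 were at background, and the sum there comes mostly from the other markers. At 1 d 1 of 7 microglial markers was higher and 1 lower, and 5 were higher at 4 d (sums of 702 to 756, 557 to 801 and 1940 to 2260). Compared with 1 d, 6 of the 7 were higher at 4 d. The part of these cells in the STAT values was not tested. The 7 neuronal markers (sums of 11800 to 12200, 11500 to 12100 and 11000 to 11800), the 6 of astrocytes and the 4 of oligodendrocytes were above background in all groups, as brain tissue would show, and limma called 0 of the neuronal and oligodendrocyte markers against PBS (1 neuronal and 2 oligodendrocyte markers lower at 1 d at an unadjusted p under 0.05, 0 by ordinary tests). Of the 6 astrocyte markers 1 was higher at each time, and of the 6 of endothelium 1 was higher at 1 d and 2 at 4 d. *Gfap*, an astrocyte gene counted among the STAT3 targets and not among these markers, was named after its values were seen. Its log2 changes were 2.83 at 1 d and 2.5 at 4 d, both past the test.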

How the data were processed

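Brain RNA pools from 3 mice each were labelled by the authors and hybridised to Affymetrix HT MG-430 PM arrays. The deposited values are log2 expression values, which the authors made by RMA (background correction, normalization between arrays and summary over probes) in Affymetrix Expression Console, of a version not given in the sources used here. RMA shrinks differences near background. The 104 control entries were dropped, which left 45037 probe sets for testing. Names came from the platform annotation and were checked by Entrez identifier (0 symbols changed). Probe sets with several symbols (551) or with none (15588) stayed unnamed.

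In limma 3.58.1 (R 4.3.3), the 9 arrays entered 1 model of group means with 6 residual and 3.02 prior degrees of freedom, and Benjamini-Hochberg adjustment ran across every probe set tested. The thresholds are those of the study. Ordinary tests without moderation (separate tests of each pair of groups, and a test across the 3 groups) were an alternative. The fit was tested on simulated data. Depth has no meaning for arrays, and their number limits the precision. Array correlations were 0.992 to 0.994 within and 0.981 to 0.990 between groups. No batch is given in the sources used here.

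Members and lists were chosen with earlier results of these data known. Named were the members, up to 3 called genes with the largest change in each list, and the 3 most similar genes of each member past the F-test. A total of 13 listed genes had no probe set of their own and are not reported. Figures were drawn with matplotlib 3.10.9 in Python 3.11.15.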

Additional observations from a re-analysis of the deposited data

Results flagged for a closer look

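For the results below, the change after LPS differed between 1 d and 4 d by limma's direct test of the groups, with values in log2 as 4 d minus 1 d. Both share the PBS arrays, which cancel in this difference. Among the STAT genes these were *Stat2* (-0.97) and *Stat3* (-0.84). Among the named pathway genes, *Il6* (-3.48) and *Csf3* (-2.95) were at background at 4 d, so their falls have only a lower limit, 3.27-fold and 6.54-fold. The others that fell were *Chil3* (-3.09), *Ifit1* and *Rsad2* (-2.66 each), *Timp1* (-2.62), *Usp18* (-2.49), *Oasl2* (-2.30), *Socs3* (-1.87), *Osmr* (-1.09) and *Tgm2* (-1.07). *Ifngr1* rose (0.63). With 3 arrays a group, no array was assessed as an outlier.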

How the results depend on the processing

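At 1 d *Stat2* kept its call in all 20 alternatives (log2 changes of 0.74 to 1.5) and *Stat3* in 19, the exception being its dimmer probe set (0.03). The count of members called at 1 d was 1 with the second probe sets, and 2 to 3 with an array left out. At 4 d the count of 1 became 2 with no fold threshold (*Stat3* and *Stat6*) and 0 with at least 2-fold, with second probe sets, with ordinary tests without moderation, with only the 6 arrays compared, with the mean of all probe sets and with the replicate block, and lay between 0 and 1 with an array left out. Between the times the count of 2 became 0 with at least 2-fold, second probe sets or ordinary tests, 1 (*Stat2*) with only the 6 arrays, the mean of all probe sets or the replicate block, and 1 to 2 with an array left out. The F-test called 2 to 3 members in the alternatives that apply to it, without *Stat6* in those with 2 except that of the second probe sets, which was without *Stat3*. Of the pathway genes, ordinary tests called 24 (1 d), 7 (4 d) and 0 (from 1 d to 4 d), against 42, 28 and 23, and 0 of the 10 neutrophil markers at 1 d, against 7. With an array left out the pathway counts were 33 to 41, 24 to 29 and 18 to 24.

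The replicate numbers did not pair the arrays (correlations of deviations from -0.0346 to 0.0216), and with the replicate block *Stat3* had adjusted p of 0.105 (4 d) and 0.0642 (1 d to 4 d). With the second probe sets the sign of the called *Stat3* value at 4 d turned (-0.06 in log2). The other signs that turned were of uncalled values. With the second probe sets these were *Stat5a* at 4 d (-0.10) and between the times (-0.19), and *Stat5b* at 4 d (0.00) and between the times (0.08). With the mean of all probe sets *Stat5a* (0.00) and *Stat5b* (0.01) between the times turned. With an array left out, *Stat4* reached 0.31 (1 d), 0.48 (4 d) and 0.35 (1 d to 4 d). Without PBS replicate 2 *Stat4* at 1 d (-0.25) and 4 d (-0.08) and *Stat5b* at 1 d (0.01) turned, without LPS 1 d replicate 2 *Stat4* at 1 d (-0.04), and without LPS 4 d replicate 2 *Stat4* at 4 d (-0.01) and between the times (-0.07). Except where the construction of the alternative gives it, the cause was not tested.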
